A study of Drosophila melanogaster with 36 samples.

Results

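Line 17 is 1 of 9 isogenic lines of Drosophila melanogaster whose embryos were profiled at 5 h and 8 h on Affymetrix one-colour expression arrays. Flies of one isogenic line are close to genetically identical, while different lines carry different alleles. Members of line 17 were the arrays whose titles carry that line number, which gave 1 array at 5 h and 2 at 8 h, so 3 of the 36 arrays of the series. The reference was the other 8 lines (titled Drosophila_23, Drosophila_58, Drosophila_75, Drosophila_83, Drosophila_89, Drosophila_128, Drosophila_134 and Drosophila_145), with 32 arrays, 2 for each line and time. Per the labels, each array holds a separate RNA sample of embryos, and no allele, treatment or origin of any line is given. The labels do not tie the RNA samples of one line to separate collections of embryos; p-values therefore measure only the spread between samples, which may be technical. One more 5 h array has a title that names no line; it was left out, and the main counts of calls are also given with it added to line 17.

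In embryos of this age the store of maternal RNA laid into the egg has been partly replaced by transcripts of the embryo's own genome, and neurons and muscle are starting to form. A probe set is a group of short probes for 1 or more transcripts, and some carry several gene symbols. A sequence variant under the probes can change the signal without a change in RNA. Such a variant and a change in RNA cannot be told apart on these arrays, and neither can fewer cells of a type and less RNA per cell.

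The labels of 2 of the 5 h arrays have to be set out before the results. Deviations from the time mean over 6179 probe sets above background were correlated between arrays, as a description. The 3 line 17 arrays correlated with each other at 0.39, 0.41 and 0.67. The 5 h array titled 23A, which the labels give to line 23, correlated at 0.56 with the line 17 array of 5 h and at 0.52 and 0.53 with those of 8 h, against at most 0.19 with the other line 23 arrays. The array that names no line correlated best with the other 5 h array of line 23, at 0.46, and at 0.06 with the line 17 array of 5 h. In 8 probe sets both line 17 arrays of 8 h stood above every other 8 h array by over 0.4 on the log2 scale, and in 6 below. Among the 8, the array titled 23A was among the 2 highest of the 18 arrays at 5 h for 7, the line 17 array for 5 and the array that names no line for 0. The 6 carried over to 5 h less. Neither the line 17 array nor the array that names no line was among the 2 lowest for any of them. The array titled 23A was so only for eIF1 and a probe set with no gene name. Whether an array carries a wrong label was not tested. All results follow the labels, and the array titled 23A is shown apart from the other 15 arrays of the other lines at 5 h, with the main counts of calls also given without it.

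Total deposited intensity was 178651 for the line 17 array of 5 h and 142942 and 96594 for those of 8 h, against 68984 to 309710 at 5 h and 46261 to 266525 at 8 h in the other lines. Intensities were therefore quantile normalised. All levels below are normalised intensities, and all differences are line 17 minus the mean of the other 8 line means on the scale log2(intensity + 16), which understates the change of dim probe sets. Errors are standard errors from 3 arrays against 32, and adjusted p-values come from limma over 18769 probe sets. A probe set is called at an adjusted p under 0.05.

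Over both times 176 of the 18769 probe sets (0.938%) were called, of which 122 (0.65%) were higher and 54 (0.288%) lower in line 17. At an unadjusted p under 0.05 there were 1880 (10%). The differences were mostly small: 78 of the 176 (0.416% of all probe sets) reached 0.5 and 8 (0.0426%) reached 1 in size, while the median over all probe sets was -0.003. In 92 (0.49%) the line 17 mean also lay outside all 8 other line means at both times, 76 above and 16 below. Called or not, this held for 877 probe sets (4.67%), with 453 above and 424 below. In 30 of the 176 calls (0.16% of all probe sets) every line 17 array lay outside every array of the other lines at its time, 25 above and 5 below. Without the array titled 23A these 3 counts of calls (176, 92 and 30) were 207 (1.1%), 104 and 44, and 173 of the 176 were called again in the same direction. With the array that names no line added to line 17 there were 555 calls (2.96%), 345 higher and 210 lower, which included 156 of the 176. The same comparison made for each other line in turn gave 149 calls for line Drosophila_83 and up to 1617 for line Drosophila_75. Each other line has 2 arrays at 5 h where line 17 has 1, so these counts differ in precision.

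The count depends on the scale and on what stands for error. On the deposited scale 35 probe sets were called, 82.9% of them higher, and with arrays centred on their medians 62, with 82.3% higher, against 69.3% on the main scale. None of the 176 differences turned sign on the deposited or the centred scale. Other settings moved the share that was higher both ways. It was 56.5% with 4 in place of 16 added before the log2, and 72.2% with 64. When only probe sets above background on at least 18 arrays were fitted it was 62%. Without lines Drosophila_75 and Drosophila_89 it was 50.5%, so the size of the excess of higher calls depends on the setting. With the spread among the means of the other 8 lines as the error, 9 probe sets (0.048%) were called by limma, all higher in line 17, and 930 (4.95%) had an unadjusted p under 0.05. Of these 9, only the probe set with no gene name 1624819_s_at, CG7920 and CR44101 were above background on all 3 line 17 arrays.

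The 3 probe sets just named, all higher in line 17, carry no gene name or only a CG or CR number. The probe set 1624819_s_at, which the annotation used here leaves without a gene name, read 27.6 at 5 h and 30.6 and 19.1 at 8 h in line 17. The other lines ranged over 0.185 to 2.92 at 5 h with a median of 1.52, with 26.5 in the array titled 23A, and over 0.126 to 5.91 at 8 h with a median of 1.18. All 3 line 17 arrays lay above every other array of their time. The difference was 1.23 ± 0.12 (SE; adjusted p = 1.1e-07 by limma, and 0.00024 with the spread among lines as the error). It was at background on 27 of the 32 arrays of the other lines.

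**Figure D1:**
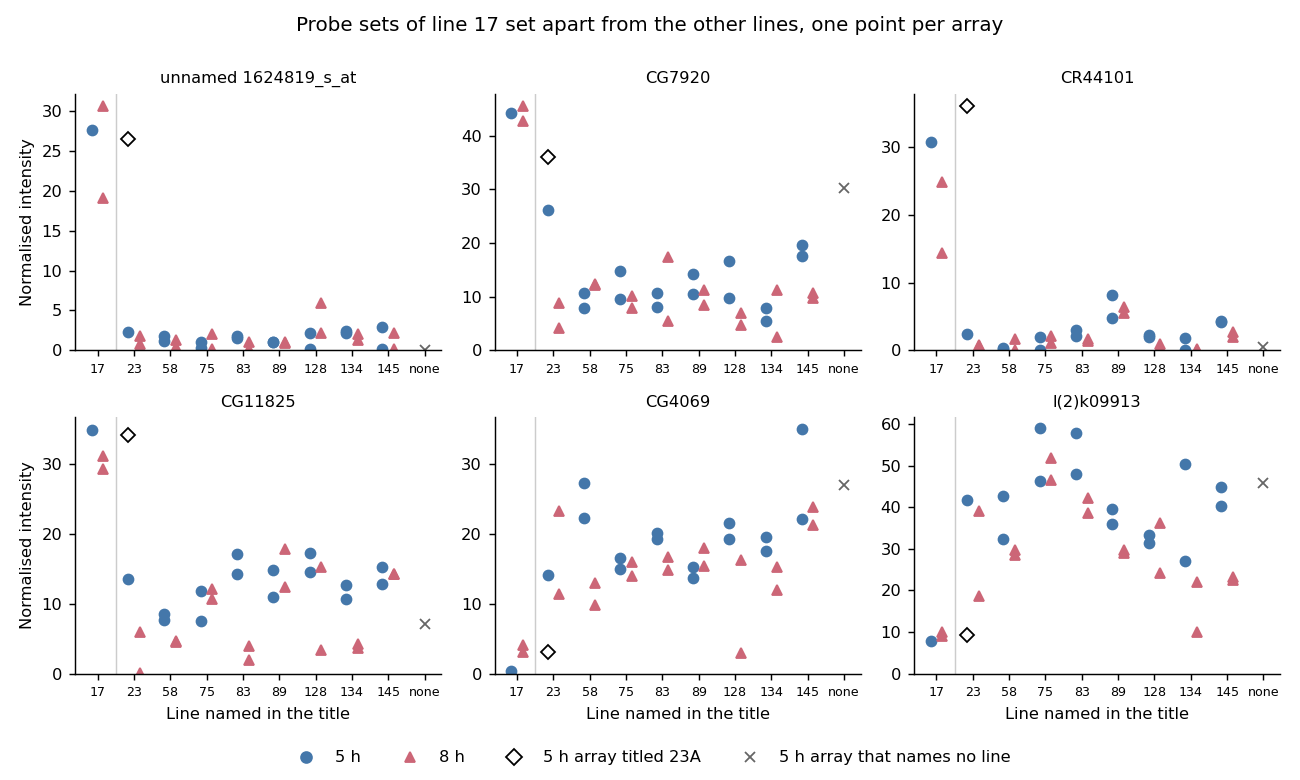
Normalised intensity of 6 probe sets on each of the 36 arrays (y axes, linear), by the line named in the title (x axis, line 17 at the left), with 5 h arrays as circles, 8 h arrays as triangles, the 5 h array titled 23A as an open diamond and the array that names no line as a cross. For each of the 6 the diamond sits near the line 17 points, and the cross sits away from them in all but CG7920, where it reads 30.2.

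CR44101, a non-coding RNA gene by its symbol, read 30.7 at 5 h and 24.8 and 14.4 at 8 h in line 17, against 0.0796 to 8.2 (median 2.12) at 5 h and 0.089 to 6.4 (median 1.27) at 8 h in the other lines. Only the array titled 23A, at 36.0, overlapped line 17. The difference was 1.12 ± 0.14 (adjusted p = 9.3e-06). CG7920 read 44.3 at 5 h and 42.8 and 45.6 at 8 h in line 17, against 5.43 to 26.1 (median 10.6) at 5 h, with 36.1 in the array titled 23A, and 2.58 to 17.4 (median 9.24) at 8 h. The groups did not overlap, and the difference was 1.16 ± 0.11 (adjusted p = 1.1e-07). The other probe sets of CG7920 gave 0.01 ± 0.04 and 0.20 ± 0.07 and were not called. They were above background on 0 and 2 of the 3 line 17 arrays and on 4 and 15 of the other 32.

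CG11825 read 34.9 at 5 h and 31.1 and 29.3 at 8 h in line 17, against 7.55 to 17.3 at 5 h, with 34.1 in the array titled 23A, and 0.162 to 17.8 at 8 h. CG10013 read 13.4 at 5 h and 16.5 and 13.4 at 8 h in line 17, against 0.3 to 8.88 at 5 h, with 12.7 in the array titled 23A, and 0.119 to 5.8 at 8 h. Neither gene overlapped between line 17 and the other lines, and their differences were 0.88 ± 0.12 and 0.68 ± 0.08. With the array that names no line added to line 17 every one of these differences shrank: to 0.87 for 1624819_s_at, 0.75 for CR44101, 1.07 for CG7920, 0.60 for CG11825 and 0.46 for CG10013. That array read 0.098 for 1624819_s_at, below the lowest of the other lines, and 0.451 for CR44101, within their range.

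Of the genes with a name that rose in line 17 and met the naming rule, Nop56, a core protein of the box C/D particles that guide methylation of ribosomal RNA, had the largest difference. It read 181 at 5 h and 183 and 212 at 8 h in line 17, against 56.4 to 150 at 5 h and 58.6 to 152 at 8 h in the other lines, with 141 in the array titled 23A. Every line 17 array was above every other array, by 0.75 ± 0.13 on average (adjusted p = 0.00091). Nop60B, the pseudouridine synthase of the box H/ACA particles, was chosen after its values were seen. Its probe set 1628188_at rose by 0.87 ± 0.12, while its brighter probe set differed by 0.39 ± 0.12 and was not called (adjusted p = 0.13). At 8 h probe set 1628188_at averaged 6.85 on the log2 scale in line 17, below 7.08 in line Drosophila_23, and its call was lost on the deposited scale (adjusted p = 0.066). At 5 h this probe set averaged 6.75 in line 17 and 6.71 in line Drosophila_23. Nop10, a partner of that enzyme and likewise chosen afterwards, rose by 0.65 ± 0.17 (adjusted p = 0.045), and its call was lost with the array that names no line added (adjusted p = 0.11).

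papi, a Tudor-domain protein of the piRNA pathway, which silences transposons in the germline, read 17.7 at 5 h and 19.3 and 14.8 at 8 h in line 17, against at most 12.2 (median 4.74) at 5 h, with 14.4 in the array titled 23A, and 0.166 to 11.5 at 8 h in the other lines. Its groups did not overlap (0.60 ± 0.09, adjusted p = 0.00021). aub, a Piwi-family protein that binds piRNAs, read 31.0 at 5 h and 24.6 and 28.2 at 8 h in line 17, against 13.0 to 32.6 at 5 h and 3.01 to 23.1 at 8 h. It overlapped at 5 h, and its difference was 0.52 ± 0.10 (adjusted p = 0.0054). The list of germ plasm and germ cell genes as a whole had 1 of 13 called, aub itself, and a median of 0.02; papi is not on that list.

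RPA2, a subunit of the protein that coats single-stranded DNA, read 42.6 at 5 h and 48.8 and 48.3 at 8 h in line 17, against 16.0 to 41.0 at 5 h, with 42.3 in the array titled 23A, and 10.4 to 40.5 at 8 h. No line 17 array overlapped (0.58 ± 0.13). dgt6, a subunit of the augmin complex that branches spindle microtubules, rose by 0.47 ± 0.09 without overlap. san, an acetyltransferase needed for sister chromatid cohesion, rose by 0.56 ± 0.11, but its arrays overlapped those of the other lines at both times. The lists of cell cycle and DNA replication genes had 0 of 11 and 0 of 13 called over both times, with medians of 0.14 and -0.03.

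Prosalpha6, an alpha subunit of the proteasome core, read 96.9 at 5 h and 65.7 and 77.1 at 8 h in line 17, against 31.2 to 92.8 at 5 h, with 97.3 in the array titled 23A, and 14.2 to 65.4 at 8 h. Line 17 was above all but the array titled 23A, by 0.74 ± 0.13 (adjusted p = 0.003). poe, a large calmodulin-binding protein, rose by 0.57 ± 0.11 and EMRE, a subunit of the mitochondrial calcium uniporter, by 0.56 ± 0.12. Nup358, of the nuclear pore's cytoplasmic side, rose by 0.47 ± 0.11 and Kots by 0.58 ± 0.13. Hsc70-4, the main constitutive cytosolic Hsp70 chaperone, read 771 at 5 h and 680 and 621 at 8 h in line 17, against 390 to 724 and 336 to 636 in the other lines, with 771 in the array titled 23A, a rise of 0.48 ± 0.09. Among genes named after their values were seen, the deubiquitinase Usp5 rose by 0.78 ± 0.12, the deadenylase subunit PAN3 by 0.82 ± 0.16 and CG8435 by 0.77 ± 0.11. In each of these 3 another line had a higher mean than line 17 at 5 h. CG12608, which the naming rule chose, rose by 0.55 ± 0.13. One probe set of tkv, a BMP receptor, rose by 0.72 ± 0.11 while the other gave 0.03 ± 0.10. On the deposited scale Nop56 (adjusted p = 0.3), Prosalpha6 (0.14), RPA2 (0.19), aub (0.084), dgt6 (0.092), san (0.17), poe (0.14), EMRE (0.11), Nup358 (0.57), Kots (0.15), Hsc70-4 (0.48), PAN3 (0.063), Nop10 (0.15) and CG12608 (0.073) were not called, whereas papi (0.005), Usp5 (0.002), CG8435 (0.00036) and tkv (0.014) were.

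**Figure D2:**
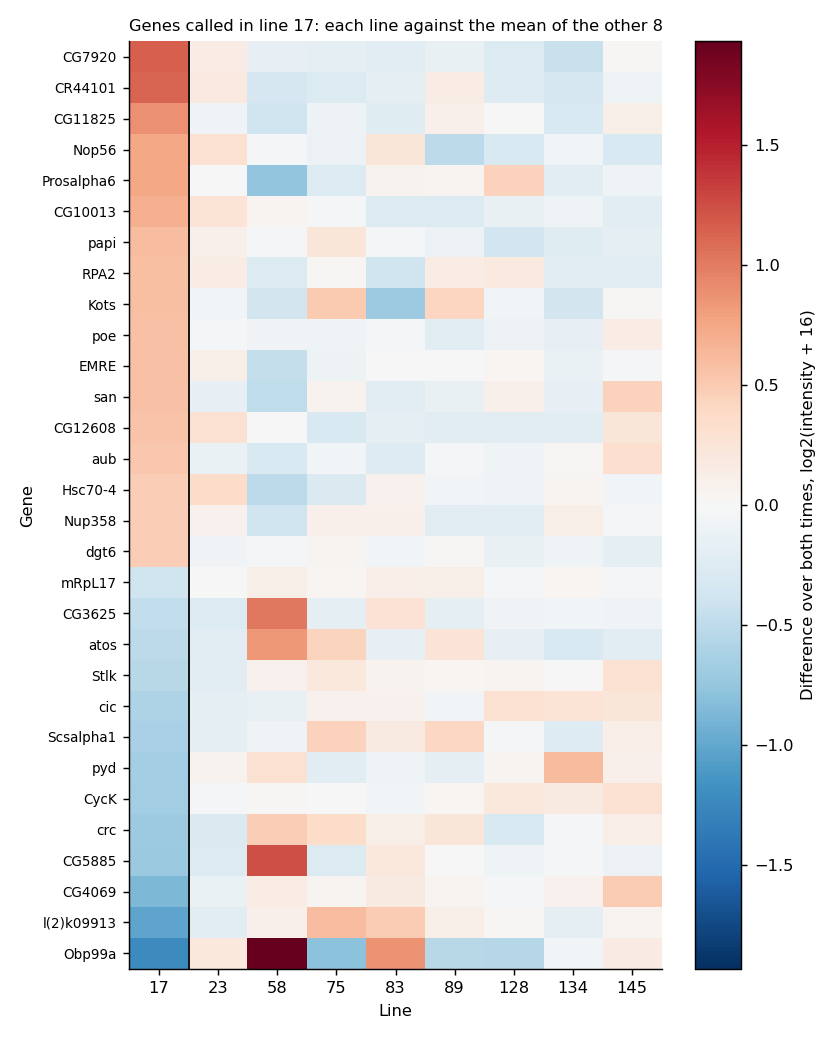
Difference of each line from the mean of the other 8 lines over both times (colour, log2 scale) for the 30 genes named by rule (rows, sorted by line 17) in the 9 lines (columns, line 17 at the left). The rule that chose the genes makes line 17 extreme in every row; line Drosophila_58 deviates upwards in Obp99a, CG5885, CG3625 and atos.

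Fewer genes were called lower than higher in line 17, and only 13 met the rule for naming. Called or not, line 17 lay below all other line means at both times in 424 probe sets, nearly as many as the 453 above. The gene l(2)k09913 read 7.74 at 5 h and 8.99 and 10.1 at 8 h in line 17, against 27.1 to 59.0 (median 41.7) at 5 h and 10.1 to 51.8 (median 29.4) at 8 h in the other lines. The array titled 23A read 9.27 and the array that names no line 45.8. Each line 17 array was below every other array of its time, though at 8 h the nearest values round to the same number, and the difference was -1.02 ± 0.16 (adjusted p = 0.00045). It was -1.05 without the array titled 23A and -0.67 with the array that names no line added.

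Obp99a, an odorant-binding protein gene, had the lowest difference, -1.23 ± 0.21 (adjusted p = 0.0014). It read 2.44 at 5 h and 16.4 and 11.8 at 8 h in line 17, against 3.75 or more (median 11.6) at 5 h, with 3.02 in the array titled 23A, and 7.52 or more (median 85.6) at 8 h. At 8 h the arrays overlapped, with line Drosophila_75 the lowest and line Drosophila_58 the highest of the other line means. The list of odorant-binding proteins held 47 genes, of which Obp99a was lower and Obp49a, near background, was higher.

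cic, the repressor Capicua that is relieved by receptor tyrosine kinase signalling, read 4.99 at 5 h and 7.67 and 7.06 at 8 h in line 17, against 6.6 to 23.5 at 5 h, with 5.82 in the array titled 23A, and 8.08 to 26.4 at 8 h. The groups did not overlap (-0.59 ± 0.11, adjusted p = 0.003), and the other probe set of cic (-0.02 ± 0.05) was at background on all 3 line 17 arrays and above it on only 2 of the other 32. CycK, the cyclin K that partners kinases of transcription elongation, read 5.83 at 5 h and 5.61 and 7.83 at 8 h in line 17, against 15.8 to 33.3 at 5 h and at most 27.6 (median 18.5) at 8 h, with 3.79 in the array titled 23A. Only that array overlapped line 17 (-0.67 ± 0.14, adjusted p = 0.0083). crc, the ATF4 factor of the amino acid and stress response, read 14.0 at 5 h and 38.0 and 30.9 at 8 h in line 17, against 21.5 to 61.9 and 37.3 to 89.8 in the other lines, and differed by -0.70 ± 0.12 (adjusted p = 0.00087). Its 8 h arrays overlapped at the edge.

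The probe set of pyd, the ZO-1 protein of cell junctions, differed by -0.66 ± 0.13, while the other 5 probe sets of this gene lay between -0.13 and 0.02, were not called and were above background on at most 1 line 17 array. Stlk, a kinase gene, fell by 0.53 on one probe set (SE 0.12) and gave 0.12 ± 0.11 on the other, and it was above background on only 1 line 17 array. Scsalpha1, a subunit of succinyl-CoA synthetase in the citric acid cycle, differed by -0.62 ± 0.15, atos by -0.51 ± 0.12 and mRpL17, of the mitochondrial ribosome, by -0.38 ± 0.09. CG4069 read 0.382 at 5 h and 4.03 and 3.05 at 8 h in line 17, against 13.7 to 34.9 at 5 h and 3.02 to 23.8 at 8 h, with 3.17 in the array titled 23A. It overlapped with 1 array at 8 h and differed by -0.86 ± 0.12 (adjusted p = 0.00013). CG5885 and CG3625 differed by -0.71 ± 0.14 and -0.48 ± 0.09. With the array that names no line added, CycK and atos were not called (adjusted p = 0.066 each). On the deposited scale l(2)k09913 (0.025), Obp99a (0.041) and CG4069 (0.00079) were called, and the other 10 were not.

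Of 44 lists of pathway, tissue and cell type genes, 30 had no member called over both times. Over all 11982 genes 137 (1.14%) were called, with a median difference of -0.003. The proteasome list had 2 higher and 1 lower of 40, and 1 of these, Prosbeta2R1, was below background on all arrays. Of 71 respiratory chain and ATP synthase genes ND-39 rose by 0.43 ± 0.11 and UQCR-6.4 differed by -0.71 ± 0.14. RpL7-like (0.57 ± 0.13) was the only gene called in the list of 41 named as cytoplasmic ribosomal proteins, whose median was 0.05. The translation factor eIF1 differed by -0.57 ± 0.13. Neither the early patterning lists (gap, pair-rule, segment polarity, dorsal-ventral) nor the neuroblast list had a member called.

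Markers of the embryo's differentiating tissues gave medians below 0. The medians were -0.33 for 10 muscle structural genes, -0.17 for 18 haemocyte and fat body genes, -0.17 for 11 tracheal genes and -0.14 for 15 neuron and glia genes. Among them only LanA, a laminin chain of basement membranes, was called over both times (-0.63 ± 0.16). Ance, an angiotensin-converting enzyme of the amnioserosa, differed by -0.47 ± 0.11 and the tubulin betaTub60D by -0.89 ± 0.21, and betaTub60D was above background on 1 line 17 array only. Lists for adult tissues that embryos should lack (eggshell and yolk, midgut proteases, male germline) had medians of 0.00, 0.01 and 0.01 and no call over both times.

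**Figure D3:**
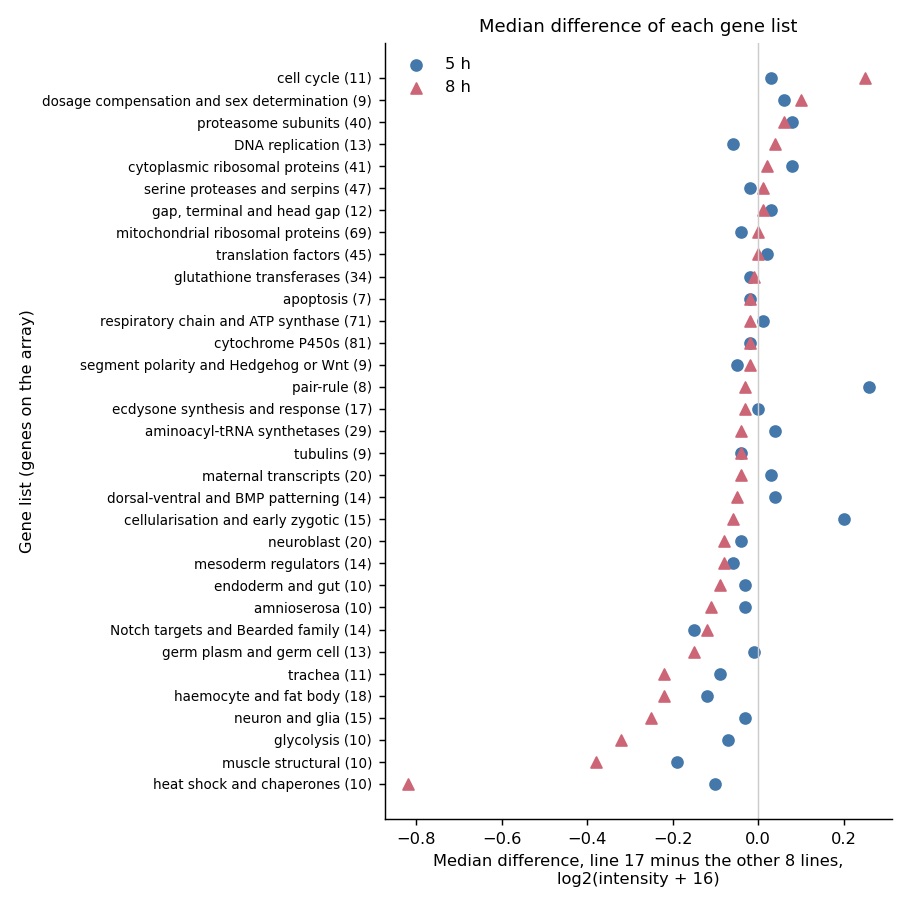
Median difference of the genes of each list with at least 5 genes above background (rows, number of genes on the array in parentheses) at 5 h (circles) and 8 h (triangles), line 17 minus the other 8 lines on the log2 scale. Most medians lie near 0; the heat shock and chaperone list lies at -0.82 at 8 h and -0.10 at 5 h.

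Most of the calls at a single time were at 8 h, where line 17 has 2 arrays. At 5 h, with 1 array, 9 probe sets (0.048%) were called, 8 higher and 1 lower. At 8 h 830 (4.42%) were called, 535 (2.85%) higher and 295 (1.57%) lower, and in 359 of these (1.91%) both line 17 arrays lay outside all 16 other 8 h arrays. Without the array titled 23A the counts were 18 at 5 h and 792 at 8 h, and with the array that names no line added to line 17 they were 27 and 815. The count at 8 h was 470 without the first line 17 array and 237 without the second, and 13 on the deposited scale and 28 with arrays centred on their medians. No probe set was called for a difference between the times (991, or 5.28%, had an unadjusted p under 0.05 in limma), and 3 were called without the array titled 23A, so a call at 8 h alone does not show that line 17 differs only then.

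The heat shock and chaperone list stood lowest at 8 h. Of its 10 genes 7 were called lower and 1 higher, beside 1.57% lower and 2.85% higher of all probe sets, and 9 of 10 lay below 0 under each of the 4 scales run. Background was exceeded on at least 18 arrays by 9 of the 10, against 6179 of all 18769 probe sets, so these shares are not alike. When only those 6179 were fitted, 1012 were called at 8 h in either direction. Hsp27, a small heat shock protein, read 10.6 and 9.01 at 8 h in line 17, against 30.4 to 156 (median 56.7) in the other lines, without overlap (-1.64 ± 0.26, adjusted p = 0.00034). At 5 h it read 104 in line 17, inside the other lines' 16.0 to 271. Hsp26, of the same family, read 10.6 and 5.48 at 8 h in line 17, against 12.2 to 229 in the other lines (-1.64 ± 0.39, adjusted p = 0.012). Hsp60A, the mitochondrial chaperonin, read 6.74 and 0.974 at 8 h in line 17, against 2.43 to 76.5, with overlap (-1.17 ± 0.24).

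Hsc70-3, the chaperone BiP of the endoplasmic reticulum, read 43.6 and 39.3 at 8 h in line 17, against 51.5 to 143 in the other lines, without overlap (-0.93 ± 0.18). DnaJ-1, a co-chaperone of Hsp70, read 18.7 and 21.8, against 23.3 to 99.1, also without overlap (-0.80 ± 0.16). Hsc70-5 and Hsp68 differed by -0.58 ± 0.16 and -0.84 ± 0.23. Hsc70-4 went the other way (0.52 ± 0.11). On the deposited scale 0 of the 10 were called, with Hsp27 at -1.51 (adjusted p = 0.089), and with 1 line 17 array left out 3 or fewer were called lower. The levels of these genes differed widely between the other lines too, with Hsp27 lowest in line Drosophila_134 and highest in line Drosophila_58 among their 8 h means.

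**Figure D4:**
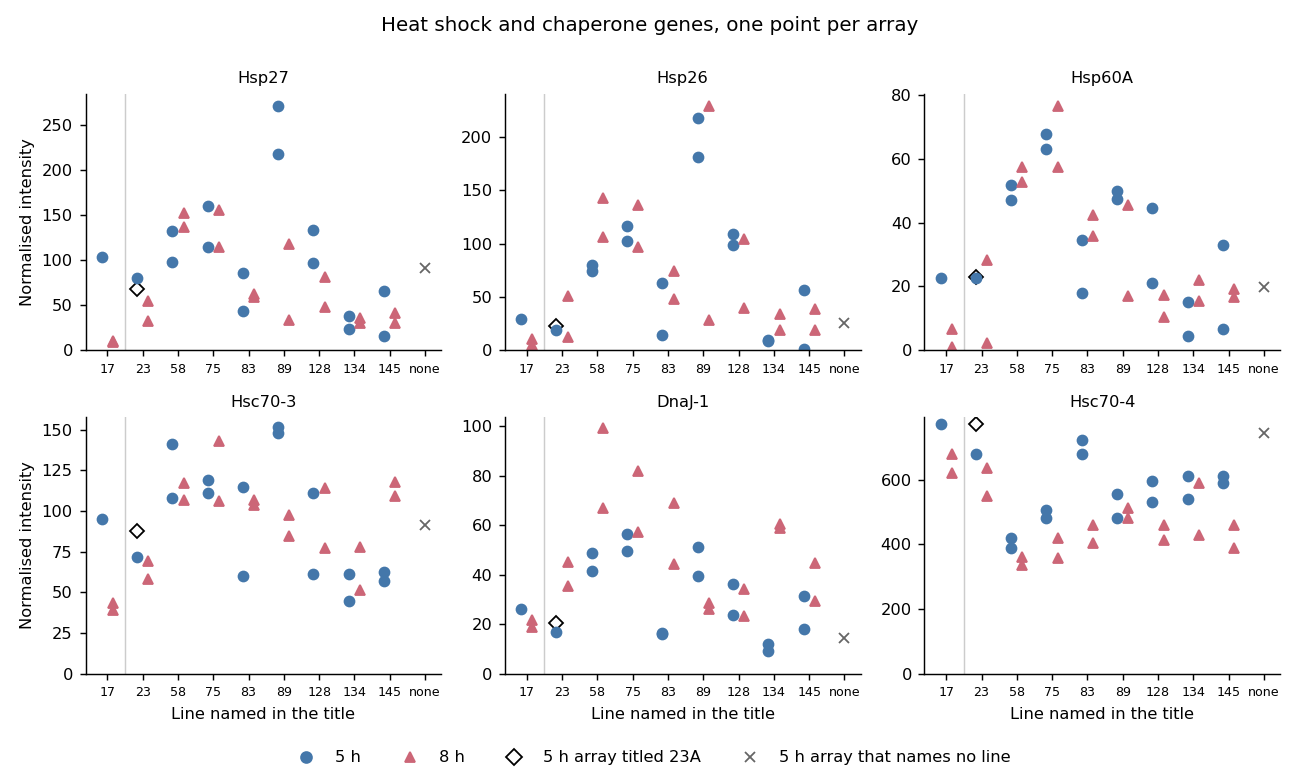
Normalised intensity of 6 heat shock and chaperone genes on each array (y axes, linear), by line (x axis, line 17 at the left), with 5 h arrays as circles and 8 h arrays as triangles. At 8 h line 17 lies below all other arrays for Hsp27, Hsp26, Hsc70-3 and DnaJ-1, and within their range at 5 h.

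Of 40 proteasome subunits 7 were called higher at 8 h and 1 lower, beside 2.85% and 1.57% of all probe sets, with a list median of 0.06. Above background on at least 18 arrays were 26 of the 40. As for the heat shock list, the share over all probe sets is therefore not a like one. The list is described because its count of higher calls at 8 h was the highest of the 44 lists, which differ in size. One of the 7, Prosbeta2R1, was below background on all arrays, and the rest encode core subunits. Prosalpha4 read 101 and 91.4 in line 17, against a median of 40.0 in the other lines, without overlap (1.03 ± 0.21, adjusted p = 0.0038), and Prosbeta7 read 147 and 156, against 47.2 to 130 (0.85 ± 0.16). The lid subunit gene Rpn8 read 8.89 and 9.62 in line 17, against 12.8 to 47.3 (-0.70 ± 0.13). On the deposited scale none of the 40 was called. Other genes with both 8 h arrays below all others, chosen after their values were seen, were Nacalpha, which escorts nascent chains, at -1.35 ± 0.27, the polyubiquitin gene Ubi-p63E at -1.23 ± 0.18, the cyclophilin Cyp1 at -1.15 ± 0.23 and the cathepsin CtsL1 at -1.06 ± 0.21. Above all others were peng (0.81 ± 0.14), crm (0.74 ± 0.11) and the aminopeptidase ApepP (0.74 ± 0.13). None of these 7 was called on the deposited scale (adjusted p between 0.072 and 0.3). With the second line 17 array left out Nacalpha (0.066), Cyp1 (0.096) and peng (0.073) were not called, and with the first left out CtsL1 (0.07) was not.

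The 2 line 17 arrays at 8 h differed from each other in late genes. Summed intensity of the muscle structural genes was 131 on the first and 13.5 on the second, and that of 105 cuticle protein genes was 461 and 84.5. The first exceeded the second by more than 3 times for 6 of 10 muscle and 29 of 105 cuticle genes. Among them Mlc1, a myosin light chain, read 29.9 and 0.101, and Lcp65Ag3, a larval cuticle protein, 116 and 0.553. No gene of the muscle list was called at 8 h or over both times.

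As a measure of developmental progress, each array was scored by the mean of the 200 probe sets that rise most from 5 h to 8 h minus the mean of the 200 that fall most, chosen from the lines other than the one scored. Line 17 scored -1.43 at 5 h on its 1 array, the lowest of the 9 lines, with the means of 2 arrays of the others at -1.22 to -0.30. Single 5 h arrays came closer, with 1 of line Drosophila_89 at -1.34 and 1 of line Drosophila_75 at -1.29. At 8 h it scored -0.22 and -0.41, a mean of -0.32, and only line Drosophila_75 was lower, at -0.78, while line Drosophila_134 was highest at 1.12. The arrays titled 23A and with no line named scored -1.34 and -1.27. The part of this score in the other differences of line 17 was not tested.

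**Figure D5:**
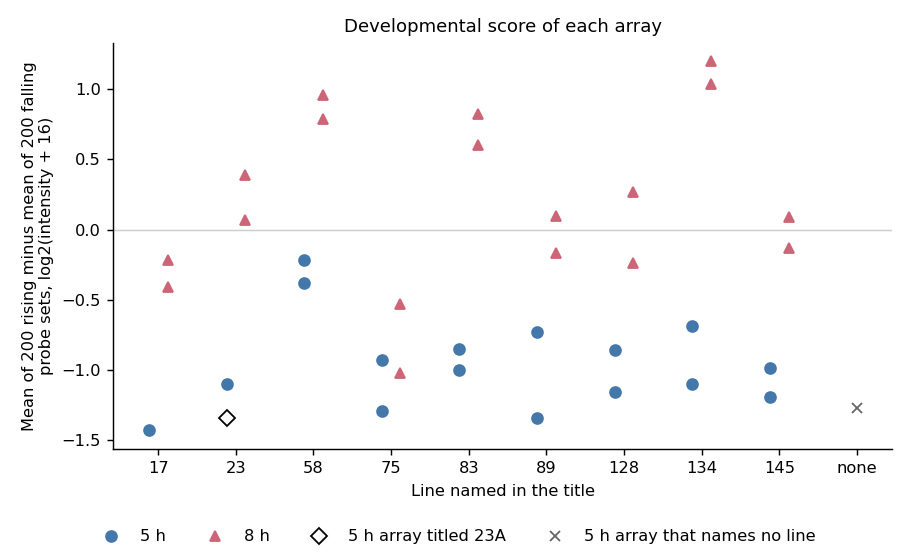
Developmental score of each array (y axis, log2 scale) by line (x axis, line 17 at the left), with 5 h arrays as circles, 8 h arrays as triangles, the array titled 23A as an open diamond and the array that names no line as a cross. Line 17 lies at -1.43 at 5 h and at -0.22 and -0.41 at 8 h.

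Of 136 called genes that could be placed in the order of genes in RefSeq, 2 pairs were direct neighbours, CG13901 with CG13887 and CG32486 with PAN3, and in each pair the members differed in opposite directions.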

How the data were processed

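Total RNA of embryos was labelled as biotin-cRNA by the one-cycle protocol and hybridised to Affymetrix arrays, per the labels' protocols. The values deposited by the authors are linear intensities, 18952 probe sets on each of 36 arrays; no source used here gives the summarisation or scaling. Control probe sets (183) were left out. Intensities were quantile normalised, a pseudocount of 16 was added and log2 taken. limma 3.58.1 in R 4.3.3 was fitted to 18 line and time means over 35 arrays (17 residual degrees of freedom, trended prior), with Benjamini-Hochberg adjustment over 18769 probe sets; 91.3% of normalised values lay under 16. On simulated data for the comparison over both times, 99 of 100 changes of 1 and 84 of 100 of 0.5 were recovered, and 15 of 18569 unchanged probe sets were called. The simulated lines and times shared 1 mean per probe set, with independent noise. Changes were placed only in probe sets above background on at least 18 arrays. The real lines differ from each other and most values are dim, so these rates need not hold for the real arrays. Background was the 99th percentile of 49 controls whose names mark them as negative ones (a reading of the names only). Names came from the platform annotation and RefSeq (13544 matched of 13647 with 1 symbol; 402 had several, 4720 none). A gene was represented by its brightest probe set. Genes were named by rule: called, outside the other line means at both times, the 12 largest each way with a symbol and 5 each way with a CG or CR number, and called list members. The members and lists were chosen with earlier results of these data known. Each sample, line, scale, pseudocount, prior, brightness term and error term was varied. Sample numbers did not pair arrays: of 136 pairs, 32 had a correlation over 0.1 (median 0.03). Number of arrays limits the precision. No sequences are shown because none were in the tables used here.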

Additional observations from a re-analysis of the deposited data

Results flagged for a closer look

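Among the 30 genes named by rule, the 8 means of the other lines over both times were checked for one that stood apart from the rest (Dixon's test at 95%, which flags about 1 in 20 groups by chance), and 3 genes had one, each time line Drosophila_58. EMRE, higher in line 17, averaged 5.12 in line Drosophila_58 on the log2 scale, against 5.41 to 5.63 in the other 7. CG5885, lower in line 17, averaged 6.52 in line Drosophila_58, against 5.17 to 5.58. CG3625, lower in line 17, averaged 5.54 in line Drosophila_58, against 4.40 to 4.88. In each the line Drosophila_58 value lies on the side away from line 17 and so adds to the difference. The genes were chosen by that difference, which favours such values, so the rate of 1 in 20 need not hold for them.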

How the results depend on the processing

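Counts are of probe sets called. Over both times (176), the count was 35 on the deposited scale, 62 with arrays centred on medians, 279 with only probe sets above background on at least 18 arrays, 555 with the array that names no line added, 80 without line Drosophila_58, 276 without line Drosophila_145, and 9 with the spread among lines as the error, also 9 with the array titled 23A left out as well. It ranged from 108 (without the second 8 h array of line 17) to 263 with 1 array left out. At 5 h (9), it was 21 deposited, 23 centred, 3 with a pseudocount of 4, 27 with the array added, 5 with a constant prior, 27 without line Drosophila_23, 16 without line Drosophila_134, 16 without line Drosophila_145 and 4 without lines Drosophila_75 and Drosophila_89, and 8 to 18 with 1 array left out, 18 being without the array titled 23A. At 8 h (830), it was 13 deposited, 28 centred and 419 without line Drosophila_58, and 237 to 989 with 1 array left out. For the change between times (0), it was 4 deposited, 4 centred, 3 with a pseudocount of 64, 1 with the array added, 3 without line Drosophila_23, 1 without line Drosophila_134 and 1 without line Drosophila_145, and 0 to 17 with 1 array left out, 17 being without the first 8 h array of line 17. For calls outside the other line means (92), it was 20 deposited, 36 centred, 160 with the array added, 50 without line Drosophila_58, 9 with the spread among lines as the error with or without the array titled 23A, 30 over single arrays and 44 over single arrays without that one, and 63 to 117 with 1 array left out. Leaving out the array titled 23A together with another change was chosen after seeing the data. The sample number as a replicate block gave 177, 8, 837, 0 and 86 calls in the same order, 157 of the 176 among them. Without lines Drosophila_75 and Drosophila_89 the share higher was 50.5% of 182 calls. No difference of the 176 turned sign in any setting run, but other probe sets of the same gene did for pyd (0.02) and Stlk (0.12). The cause was not tested. Dim probe sets limit what can be seen, as most values lie under the pseudocount, and line 17 rests on 1 array at 5 h, so its own spread there is assumed equal to that of other groups.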
